A study of Mus musculus with 19 samples.

Results

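Pools of 400 dendrites from C57BL/6 mouse hippocampal neurons were compared with pools of 200 dendrites from the same strain. The 10 arrays, 5 of each pool size, were taken by their titles alone from the 19 arrays of the series. Every pool came from untreated primary cultures of C57BL/6 neurons, prepared from embryos at day 18 (E18) and kept in culture for 14 days, and all are labelled pyramidal neurons. By their labels the groups shared strain, age and cell type and differed in the number of dendrites pooled. A pool was collected across several cells with glass pipettes, and its RNA went through several rounds of linear amplification (aRNA) before it was labelled for an Affymetrix mouse array. Axons could not be told from dendrites by shape in these cultures, so axonal RNA may be in every pool. Pools are called biological replicates in the sources, which leave unsaid if each came from its own culture or animal. The p-values given here therefore measure how pools varied, which may be technical. Values are log2 expression per gene and every difference is pools of 400 minus pools of 200.

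Dendrites hold a subset of the neuron's mRNAs, carried there on microtubules in RNA granules, and translate some of them near synapses when those are active. Known dendritic mRNAs encode cytoskeletal proteins, synaptic scaffolds, kinases and receptors, and transcripts of ribosomal and mitochondrial proteins are found in neurites too. A severed dendrite contains very little RNA. Amplification of aRNA starts from the poly(A) tail, so that each round favours the 3′ end of a transcript.

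Replicate 1 of each pool size stood apart from the other arrays. Over 18193 genes, replicate 1 of the pools of 400 correlated at r = 0.777 to 0.795 with the other pools of 400, which correlated at 0.907 to 0.934 among themselves. Replicate 1 of the pools of 200 correlated at 0.741 to 0.766 with the other pools of 200 and at 0.728 to 0.757 with replicates 2 to 5 of the pools of 400. The highest correlation of either was with the other, at 0.849. The deposited values of these arrays also carry more decimals than those of the other 8. The sources used here do not explain that difference in number format. Results are therefore given with all 10 arrays and, where it matters, with 4 against 4.

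The labelled cell type was checked against marker genes, read against a boundary set on each array at the 95th percentile of 69 olfactory and vomeronasal receptor genes, which serve the sense of smell. Of all genes, between 7.52% and 16.3% lay above it in pools of 400 and between 7.61% and 36.3% in pools of 200. Of 17 pyramidal neuron markers, between 2 and 7 lay above it in pools of 400 and between 2 and 8 in pools of 200. The 8 were in replicate 3, the array with 36.3% of all genes above it. Nrgn (neurogranin, a postsynaptic calmodulin-binding protein of forebrain neurons) was the 1 marker above it on all 10 arrays. Slc17a7, the vesicular glutamate transporter of excitatory neurons, averaged 6.10 ± 0.511 in pools of 400 and 6.77 ± 0.380 in pools of 200 (SD, n = 5 each) and lay below the boundary on every array. Neurod6 and Nr3c2, also pyramidal neuron markers, were each above it in 4 pools of 400 and 2 pools of 200. Of 18 interneuron markers, between 2 and 8 lay above it in pools of 400 and between 2 and 9 in pools of 200. Gad1 and Calb2 were the 2 above it on all 10 arrays. Gad1, the GABA-synthesising enzyme of interneurons, was at 10.78 ± 0.410 in pools of 400 and 10.39 ± 0.442 in pools of 200. None of 18 astrocyte and none of 17 oligodendrocyte markers was above the boundary on all 5 arrays of either size, and the microglial adaptor Tyrobp was above it on all 10. In pooled RNA, fewer cells of a type and less RNA per cell cannot be told apart.

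No gene differed between pools of 400 and pools of 200 at an adjusted p under 0.05 (limma with Benjamini-Hochberg adjustment over 18193 genes, 0%). The smallest adjusted p was 0.302. At an unadjusted p under 0.05 there were 1509 genes (8.29% of those tested), of which 596 were higher (3.28%) and 913 lower (5.02%) in pools of 400. All 5 pools of 400 lay above all 5 pools of 200 for 93 genes (0.511%) and below them for 223 genes (1.23%), 316 in all (1.74%). The methods' t-test also called 0 genes after adjustment, with 1512 at an unadjusted p under 0.05.

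The median gene differed by -0.05, and 44.5% of genes had a positive difference. Between the 5th and the 95th percentile, differences ran from -0.74 to 0.75, and 677 genes (3.72%) differed by more than 1, or 2-fold, in either direction. With 5 pools a side the median standard error of a gene was 0.336. The 95% confidence interval of the difference lay within 1 log2 unit on either side of 0 for 45.9% of genes and within 2 units for 95.6%.

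The genes with the smallest p are given as values, since none passed the adjusted threshold. Of the 24, 12 in each direction, 9 lay below the boundary set by the receptor genes on all 10 arrays, 0 were above it on all 5 pools of 400, and 2 (Adgre5 and Coa4) were above it on all 5 pools of 200. Log differences between values at that level are not measured folds. The boundary was high, with between 7.52% and 36.3% of genes above it per array. Camk2a lay above it on 0 arrays and Map2 on 1 pool of 200. Lying below it therefore does not show that a transcript was absent. Some receptor genes lie above it by its definition, as Olfr672 did on 4 pools of 400. Among the 12 that were higher in pools of 400, Naa30, the catalytic subunit of an N-terminal acetyltransferase, had the smallest p. Its log2 level was 7.94, 8.28, 6.74, 7.76 and 8.23 in pools of 400, against 4.63, 5.41, 5.60, 6.10 and 5.72 in pools of 200. The groups did not overlap, and the difference was 2.30 ± 0.354 (SE, limma, adjusted p = 0.302), but every one of these values was below its array's boundary. The brighter probe set of the gene gave 0.46. Brightness is everywhere the mean over the 10 arrays, so it depends on both pool sizes. Ube2e2, a ubiquitin-conjugating enzyme, was at 8.52, 8.40, 7.38, 7.66 and 7.40 in pools of 400 and at 6.06, 5.96, 6.42, 5.96 and 6.35 in pools of 200, with no overlap (1.72 ± 0.294, SE, adjusted p = 0.312).

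Other genes of this set act in ubiquitin-dependent protein turnover or encode a RING finger protein. Nhlrc1 (malin, a ubiquitin ligase) averaged 7.01 ± 0.411 in pools of 400 and 5.49 ± 0.376 in pools of 200 (SD, n = 5 each). Rnf227, which encodes a RING finger protein, averaged 7.78 ± 0.431 in pools of 400 and 6.25 ± 0.431 in pools of 200. Ubxn7, a cofactor of the segregase p97, was at 7.85 ± 0.471 in pools of 400 and 6.34 ± 0.395 in pools of 200, and its difference of 1.51 became -0.10 when its brightest probe set stood for the gene. These functions were noticed after the values were seen, and the set was not tested for them.

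Rbsn (rabenosyn-5, a Rab effector of early endosomes) averaged 8.60 ± 0.500 in pools of 400 and 7.21 ± 0.256 in pools of 200, a difference of 1.39, and its other probe sets gave 0.45 (the brightest) and 0.10. Sdhaf4, an assembly factor of mitochondrial complex II, was at 9.18, 9.59, 8.95, 8.66 and 9.23 in pools of 400 and at 6.78, 8.21, 8.11, 7.42 and 7.92 in pools of 200. Every pool of 400 was above every pool of 200 for both. St6gal2 (a sialyltransferase), the zinc finger gene Zfp317, the transcription factor gene Sall1 and Twistnb (an RNA polymerase I subunit) differed by 2.14, 1.37, 1.31 and 1.34 with no overlap. The 3 probe sets of Twistnb gave 1.65, 0.21 (the brightest) and -0.25, and the 2 of Sall1 gave 2.63 and -0.01. The first of Sall1 averaged 7.57 in pools of 400 and 4.93 in pools of 200. The second averaged 6.23 in pools of 400 and 6.24 in pools of 200. Cldn12, a claudin of cell junctions, differed by 1.62, and its pools of 400 and of 200 overlapped. Adjusted p over the 12 ran from 0.302 to 0.365.

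Among the 12 genes that were lower in pools of 400, Tasor, a subunit of the HUSH silencing complex, was at 6.72, 6.95, 6.15, 6.86 and 6.995 in pools of 400, against 8.05, 8.95, 8.44, 8.01 and 8.08 in pools of 200. The difference was -1.57 ± 0.278 (SE, adjusted p = 0.312). Pop4, a protein subunit of RNase P and RNase MRP, was at 8.34, 7.16, 7.50, 7.76 and 7.74 in pools of 400 and at 9.28, 10.69, 10.12, 9.29 and 8.88 in pools of 200. Every pool of 200 was above every pool of 400 for both genes. Ido2, an enzyme of tryptophan breakdown, averaged 6.97 ± 0.423 in pools of 400 and 8.72 ± 0.587 in pools of 200, and Fv1, a retrovirus restriction gene, averaged 5.65 ± 0.566 in pools of 400 and 7.57 ± 0.754 in pools of 200 (SD, n = 5 each).

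Coa4, an assembly factor of cytochrome c oxidase, was at 8.09, 9.42, 8.91, 9.95 and 9.94 in pools of 400 and at 11.08, 11.11, 11.11, 11.06 and 10.35 in pools of 200. In pools of 200, replicates 1 to 4 lay between 11.06 and 11.11. Adgre5 (CD97, an adhesion receptor of leukocytes), Selenoo (a mitochondrial selenoprotein) and Tcap (the titin-cap protein of striated muscle) differed by -1.29, -1.18 and -1.25. Ppp1r36, the zinc finger gene Zfp784 and the genes 4930553P18Rik and 4921517D22Rik differed by -1.68, -1.32, -1.49 and -1.53. All 12 were without overlap, and adjusted p ran from 0.312 to 0.334.

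**Figure D1:**
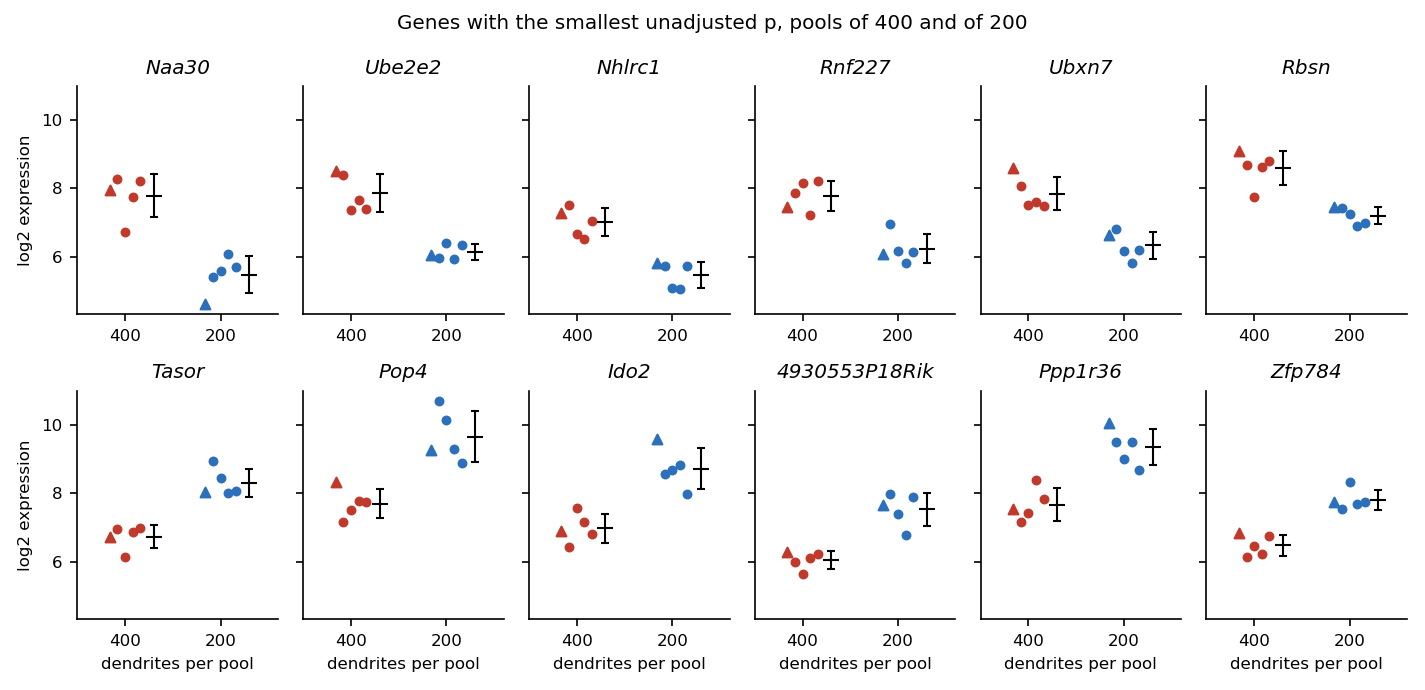
Log2 expression (vertical axis) of the 6 genes with the smallest unadjusted p in each direction, in pools of 400 (red, left) and pools of 200 (blue, right). Each point is 1 pool, triangles are replicate 1, and bars give the mean and SD of 5 pools. Naa30 had all 5 pools of 400 between 6.74 and 8.28 and all 5 pools of 200 between 4.63 and 6.10.

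Of these 24 genes, 7 were measured by over 1 probe set, and for 3 of the 7 the probe sets differed in sign. Naa30 has 2 probe sets. The first averaged 7.92 ± 0.938 in pools of 400 and 3.79 ± 0.414 in pools of 200, and the other averaged 7.66 in pools of 400 and 7.20 in pools of 200. When each of 34945 probe sets was tested singly, a choice made after the data were seen, the first of these was the 1 probe set with an adjusted p under 0.05 in the fit without a block (0.00286% of those tested). Its level was 9.22, 8.11, 6.58, 7.80 and 7.91 in pools of 400 and 3.59, 3.60, 3.33, 4.37 and 4.03 in pools of 200, a difference of 4.14 ± 0.429 (SE, limma, adjusted p = 0.00724). Its adjusted p was 0.0247 with 4 pools a side, 0.0303 with the replicate number as a block, and from 0.00166 to 0.0519 when 1 array was left out. It passed in 9 of those 10 fits and not without replicate 2 of the pools of 400. Its values lay below the 95th percentile of the receptor genes' probe sets on all 10 arrays, so that the size of the difference is not a measured fold. The calls changed with a block. With the number format as a block 3 probe sets passed, the others being those of Mcl1, a survival protein of the Bcl-2 family, and Ubxn7 (adjusted p = 0.0399 for each, limma). With the replicate number as a block 2 passed, of Naa30 and Ubxn7 (adjusted p = 0.0348 for Ubxn7, limma). Mcl1 was named after its values were seen. Its probe set is of a type that may match several transcripts. It averaged 9.12 ± 0.702 in pools of 400 and 6.54 ± 0.533 in pools of 200 (SD, n = 5 each). Without a block, adjusted p was 0.172 for each of the Mcl1 and Ubxn7 probe sets (limma). Neither passed in any fit that left out 1 array.

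Genes of energy metabolism and of the translation machinery had medians slightly above 0. No member passed the adjusted threshold in any of the 28 gene lists, so each is described by its counts and its median. Over all genes the median was -0.05 and 44.5% were positive. At an unadjusted p under 0.05 (limma), 3.28% of all genes were higher and 5.02% lower. Differences also varied with level. Their median was 0.09 in the decile of genes with the highest mean level and 0.01 in the next. In the lower deciles it was between -0.11 and -0.03. In pools of 400 the median level percentile was 93.6 for the respiratory chain and 92.2 for cytosolic ribosomal proteins. For axonal mRNAs it was 97.5 and for cytoskeletal genes 91.1. Lists were not matched to genes of their own level. Leaving out 1 array moved the median of a list by over 1.5 times, or turned its sign, in 27 of the 28 lists, all but stress genes. For 76 genes of the respiratory chain and ATP synthase the median difference was 0.16, with 53 positive. At an unadjusted p under 0.05, 2 were higher and 0 lower. Ndufa5, a complex I subunit, was at 10.44, 11.31, 10.18, 10.40 and 10.45 in pools of 400 and at 9.17, 9.90, 10.23, 9.33 and 9.71 in pools of 200 (0.89 ± 0.297, SE, adjusted p = 0.518), and Atp5b, the catalytic beta subunit of ATP synthase, averaged 9.57 ± 0.364 in pools of 400 and 8.62 ± 0.614 in pools of 200 (SD, n = 5 each). The groups overlapped for both.

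The list mean of the respiratory chain was 9.15, 10.08, 9.46, 9.57 and 9.83 in pools of 400 and 8.49, 9.97, 10.09, 9.19 and 9.40 in pools of 200. Replicate 1 was the lowest of each size, and the list's median difference was -0.09 without replicate 1 and 0.32 without replicate 3 of the pools of 200.

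Cytosolic ribosomal proteins, the structural part of the ribosome, had a median difference of 0.34 over 42 genes, with 30 positive. Their list mean was 9.01, 9.64, 9.45, 9.58 and 9.72 in pools of 400 and 8.24, 9.24, 9.78, 9.26 and 9.48 in pools of 200. Replicate 1 of the pools of 200 was the lowest of the 10, and without it the median was -0.03, while without replicate 3 of the pools of 200 it was 0.58. Members went both ways: Rpl27 was at 8.33 ± 0.493 in pools of 400 and 7.41 ± 0.430 in pools of 200, while Rpl27a was at 8.09 ± 0.243 in pools of 400 and 8.81 ± 0.340 in pools of 200, with every pool of 200 above every pool of 400. Rps6, a ribosomal protein gene that the study also examined by in situ hybridisation, was at 7.47 ± 0.369 in pools of 400 and 7.58 ± 0.320 in pools of 200.

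The 58 translation factors had a median difference of 0.15 (0.14 to 0.23 when 1 array was left out, the highest without replicate 2 of the pools of 200), with 39 positive, and 6 higher and 2 lower at an unadjusted p under 0.05. Eif2a, an initiation factor that delivers tRNA to some mRNAs, was at 5.05, 6.91, 5.71, 6.12 and 6.70 in pools of 400 and at 4.58, 4.68, 4.88, 5.00 and 4.40 in pools of 200, with no overlap (1.39 ± 0.344, SE, adjusted p = 0.406) and all 10 values below the boundary. Eif4b, a cofactor of the helicase eIF4A, was at 8.87, 9.55, 10.04, 10.38 and 10.37 in pools of 400 and at 7.64, 7.60, 7.19, 9.33 and 9.22 in pools of 200. Its pools of 200 fell into a higher pair, replicates 4 and 5, that reached the range of the pools of 400, and 3 lower ones.

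Mitochondrial ribosomal proteins (76 genes) had a median of 0.14 with 49 positive, which became -0.01 without replicate 1 of the pools of 200, and 39 proteasome subunits a median of 0.15 with 25 positive, which ran from 0.07 to 0.29 without replicate 1 and without replicate 3 of the pools of 200. Psmb2, a beta subunit of the proteasome core, went against its list. It was at 6.51, 7.10, 7.80, 7.78 and 7.71 in pools of 400 and at 8.99, 8.75, 7.87, 10.56 and 9.72 in pools of 200, with no overlap (-1.80 ± 0.453, SE, adjusted p = 0.406).

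Among cytoskeletal and neurite mRNAs, 22 genes known from axons had the highest list median, 0.45, with 17 positive and 2 higher at an unadjusted p under 0.05. The median was 0.21 without replicate 1 of the pools of 200, at most 0.62 without any other array, and 0.16 with 4 pools a side. Their list mean was 9.90, 10.17, 9.75, 9.86 and 10.05 in pools of 400 and 8.93, 9.77, 10.10, 9.45 and 9.61 in pools of 200. Mapt, which encodes the microtubule-binding protein tau, was at 11.43, 10.96, 10.62, 10.86 and 10.86 in pools of 400 and at 9.65, 10.85, 10.61, 9.82 and 10.16 in pools of 200 (0.73 ± 0.292, SE, adjusted p = 0.577). Tmsb10, an actin-sequestering thymosin, was at 9.58, 11.94, 11.67, 11.16 and 11.83 in pools of 400 and at 8.56, 8.68, 8.94, 11.25 and 11.63 in pools of 200. As for Eif4b, replicates 4 and 5 of the pools of 200 lay among the pools of 400 and the other 3 below.

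Stmn1, the microtubule-destabilising protein stathmin, was at 11.66, 11.65, 11.68, 11.68 and 12.38 in pools of 400 and at 7.82, 10.96, 11.72, 10.43 and 11.15 in pools of 200. Its difference of 1.39 was 0.74 without replicate 1 of the pools of 200. The 44 cytoskeletal genes as a list had a median of 0.19, of 0.02 without replicate 1 of the pools of 200, and of 0.03 with 4 pools a side. This list and the axonal list share members, among them Mapt, Stmn3, Stmn4, Tubb2b, Tuba1a and Cfl1, so their medians are not independent. Mapt is in the list of dendritic mRNAs too. Actb (beta-actin), whose mRNA is a classic example of a localised transcript, was at 12.23 ± 0.300 in pools of 400 and 12.33 ± 0.694 in pools of 200, and the dendritic microtubule protein gene Map2 at 7.92 ± 0.130 in pools of 400 and 7.84 ± 0.415 in pools of 200 (SD, n = 5 each). The 95% interval of neither difference excluded 0, and both are also genes whose difference changed sign in some alternatives.

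The 29 measured mRNAs known to localise to dendrites had a median difference of -0.06, close to that of all genes (-0.16 without replicate 5 and 0.01 without replicate 2 of the pools of 200), with 13 positive and 1 in each direction at an unadjusted p under 0.05. Nrgn was at 12.95, 13.09, 13.52, 12.96 and 12.73 in pools of 400 and at 13.34, 13.03, 13.24, 13.20 and 13.02 in pools of 200, a difference of -0.12 ± 0.238 (SE). Camk2a, the kinase of synaptic plasticity, was at 6.94 ± 0.343 in pools of 400 and 7.10 ± 0.275 in pools of 200. Dlgap3, a scaffold between PSD-95 and Shank, was at 5.91 ± 0.291 in pools of 400 and 6.60 ± 0.506 in pools of 200 (SD, n = 5 each).

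The list mean of 29 postsynaptic density genes was nearly level across pools of 400, at 7.73, 7.72, 7.73, 7.70 and 7.73, and ran from 7.59 to 7.81 in pools of 200. Its median difference was -0.02 and was as high as 0.03 under the other scalings. The 29 presynaptic genes had a median of 0.13, which was 0.0148 without replicate 5 and 0.0474 without replicate 3 of the pools of 200, with 2 genes in each direction at an unadjusted p under 0.05. Nsf, the ATPase that takes SNARE complexes apart, was at 9.66, 9.51, 9.63, 9.14 and 9.06 in pools of 400 and at 8.86, 8.92, 8.96, 8.72 and 8.66 in pools of 200, with no overlap (0.57 ± 0.236, SE, adjusted p = 0.577). Cplx1 (complexin, a regulator of vesicle fusion) was at 8.86 ± 0.415 in pools of 400 and 9.47 ± 0.222 in pools of 200, and its brightest probe set gave 0.08 in place of -0.61.

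Glutamate receptor and potassium channel genes had medians below 0. Of 22 glutamate receptor genes 7 were positive, with a median of -0.09, which was -0.20 without replicate 1 of the pools of 200 and -0.04 without replicate 5 of the pools of 400. Gria3, an AMPA receptor subunit, was at 7.11, 7.39, 7.38, 7.48 and 7.89 in pools of 400 and at 7.81, 8.17, 8.55, 8.12 and 8.31 in pools of 200 (-0.74 ± 0.250, SE, adjusted p = 0.518). Replicate 5 of the pools of 400 reached into the range of the pools of 200. Grik5, a kainate receptor subunit, averaged 8.80 ± 0.559 in pools of 400 and 9.86 ± 0.800 in pools of 200. The 80 potassium channel genes had a median of -0.13 (-0.07 without replicate 1 and -0.21 without replicate 3 of the pools of 200) with 23 positive, 3 higher and 6 lower at an unadjusted p under 0.05, and Kcnh3, an Eag family channel of the forebrain, was at 7.56 ± 0.277 in pools of 400 and 8.33 ± 0.431 in pools of 200, with no overlap. The 16 GABA receptor genes had a median of 0.20 with 9 positive, which was 0.0685 without replicate 2 of the pools of 400 and 0.0327 with the brightest probe set of each gene. The receptor genes of smell, read as background, had a median of -0.13 with 28 of 69 positive, of 0.03 without replicate 1 of the pools of 200 and of -0.32 without replicate 1 of the pools of 400.

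Transport and RNA-handling genes were mixed. The 41 kinesins, motors of microtubule transport, had a median of -0.16 with 15 positive, which was -0.0536 without replicate 2 of the pools of 200, near the median of all genes, and 59 Rab GTPases, which direct vesicle traffic, a median of 0.01 with 30 positive (-0.07 without replicate 5 and 0.08 without replicate 2 of the pools of 200). Rab11a, the GTPase of recycling endosomes that supply receptors to spines, was at 8.06, 8.49, 8.38, 8.22 and 8.14 in pools of 400 and at 6.46, 7.55, 7.39, 7.59 and 7.62 in pools of 200, with no overlap (0.94 ± 0.276, SE, adjusted p = 0.503). The 40 genes of RNA transport and granules had a median of 0.20 with 29 positive, which was 0.0721 without replicate 1 of the pools of 200 and 0.104 with 4 pools a side. Cpeb2, which binds the cytoplasmic polyadenylation element in 3′ untranslated regions, was at 6.04, 7.34, 6.22, 6.57 and 6.48 in pools of 400 and at 4.04, 5.98, 5.82, 4.66 and 5.61 in pools of 200, with no overlap (1.31 ± 0.395, SE, adjusted p = 0.510) and all 10 values below the boundary. The 49 splicing factors had a median of 0.06, of 0.16 without replicate 3 of the pools of 400 and of -0.00236 without replicate 1 of the pools of 400. Sf3b6, a subunit of the U2 particle, averaged 9.44 ± 0.293 in pools of 400 and 8.31 ± 0.686 in pools of 200, while Snrpn, a core protein of spliceosomal particles, averaged 5.97 ± 0.329 in pools of 400 and 6.95 ± 0.710 in pools of 200. The 13 nuclear RNAs had a median of -0.14, of -0.30 without replicate 5 of the pools of 400, of -0.04 without replicate 4 of the pools of 200, and of 0.13 when the brightest probe set stood for a gene.

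Stress genes had 28 of 34 positive differences and a median of 0.29, which stayed between 0.24 and 0.37 when 1 array was left out. At an unadjusted p under 0.05, 1 was higher and 1 lower. The list mean was 8.25, 8.53, 8.36, 8.26 and 8.37 in pools of 400 and 7.81, 8.17, 8.27, 7.98 and 8.08 in pools of 200, so that only replicate 3 of the pools of 200 reached the range of the pools of 400. Dnaja1, a co-chaperone of Hsp70, was at 11.63 ± 0.347 in pools of 400 and 10.90 ± 0.600 in pools of 200, and Trib3, a pseudokinase of the stress response, at 7.26 ± 0.170 in pools of 400 and 7.79 ± 0.326 in pools of 200. None of 21 immediate early genes, which neuronal activity induces, had an unadjusted p under 0.05, and their median of 0.03 ran from -0.05 to 0.14 when 1 array was left out, without replicate 5 and without replicate 1 of the pools of 200.

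**Figure D2:**
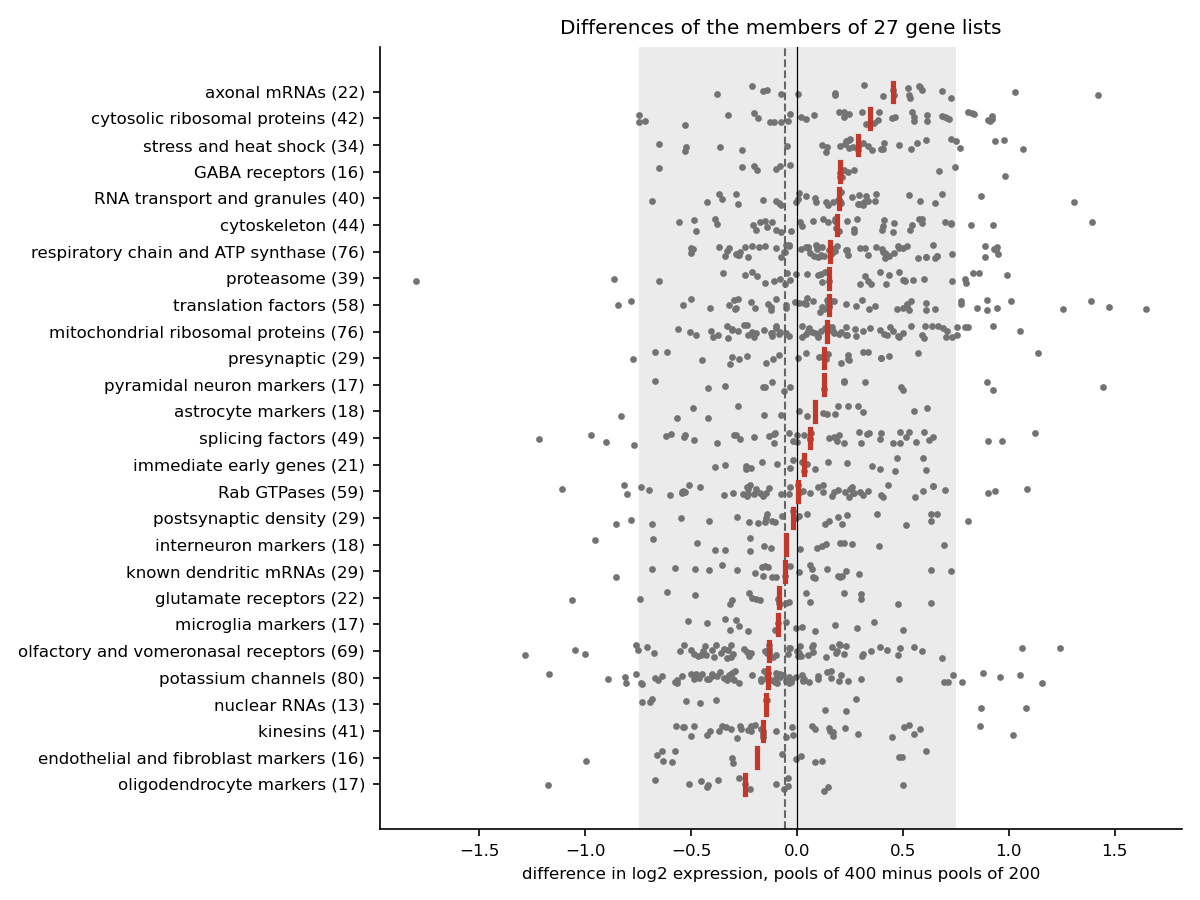
Differences in log2 expression, pools of 400 minus pools of 200 (horizontal axis), of the members of 27 gene lists, with the number of measured genes in brackets. Each grey point is 1 gene, red marks are list medians, the dashed line is the median of all genes (-0.05) and the shaded band runs from their 5th to their 95th percentile (-0.74 to 0.75). List medians ran from -0.25 for oligodendrocyte markers to 0.45 for axonal mRNAs, all within the band.

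Glial markers were mostly below the boundary set by the receptor genes. Of 17 oligodendrocyte markers 3 were positive, the median was -0.25 (-0.16 without replicate 4 of the pools of 200), and 1 was lower at an unadjusted p under 0.05. Opalin, a membrane protein of myelinating cells, was at 5.94, 5.83, 6.15, 6.78 and 6.62 in pools of 400 and at 7.85, 7.14, 7.001, 7.83 and 7.37 in pools of 200, with no overlap (-1.18 ± 0.288, SE, adjusted p = 0.406) and all 10 values below the boundary. The list mean lay between 6.08 and 6.42 in pools of 400 and between 6.34 and 6.73 in pools of 200, which overlap. Above the boundary set by the receptor genes were 0 or 1 of the 17 in pools of 400 and between 0 and 4 in pools of 200, with the 4 in replicate 3. Mbp, a defining myelin gene, was at 5.23 ± 0.337 in pools of 400 and 5.74 ± 0.330 in pools of 200, and its brightest probe set gave 0.42 in place of -0.51.

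The 18 astrocyte markers had a median of 0.08, of -0.05 without replicate 2 of the pools of 200, and of -0.06 with 4 pools a side. S100b, a calcium-binding protein of astrocytes, was at 5.84 ± 0.142 in pools of 400 and 6.67 ± 0.276 in pools of 200, with no overlap (-0.83 ± 0.236, SE, adjusted p = 0.503) and all 10 values below the boundary. Replicate 1 of the pools of 400 had the highest list mean, 7.28, against 6.50 to 6.84 in the other pools of 400 and 6.62 to 7.01 in pools of 200. Gfap, the astrocyte filament gene, was at 7.36 in that pool, 5.81 to 6.12 in the other pools of 400 and 5.23 to 6.48 in pools of 200. The 17 microglial markers had a median of -0.09 with 6 positive, 18 interneuron markers a median of -0.05 with 9 positive, and 16 endothelial and fibroblast markers a median of -0.19 with 6 positive. Without replicate 1 of the pools of 200 the microglial median was 0.00979 and the interneuron median 0.12, and without replicate 4 of the pools of 200 the endothelial and fibroblast median was -0.07.

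The 17 pyramidal neuron markers had a median of 0.13 with 9 positive, which took the other sign without any 1 of 4 arrays. Neurod6, a transcription factor of excitatory neurons, was at 8.54, 9.22, 10.21, 9.98 and 10.51 in pools of 400 and at 7.01, 8.18, 9.39, 9.49 and 9.89 in pools of 200. Nr3c2, the mineralocorticoid receptor, was at 7.77, 10.38, 11.31, 10.39 and 10.27 in pools of 400 and at 7.03, 7.81, 6.84, 11.01 and 10.21 in pools of 200. Its 1 low pool of 400 and 3 low pools of 200 lay between 6.84 and 7.81, and the other pools at 10.21 or above.

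**Figure D3:**
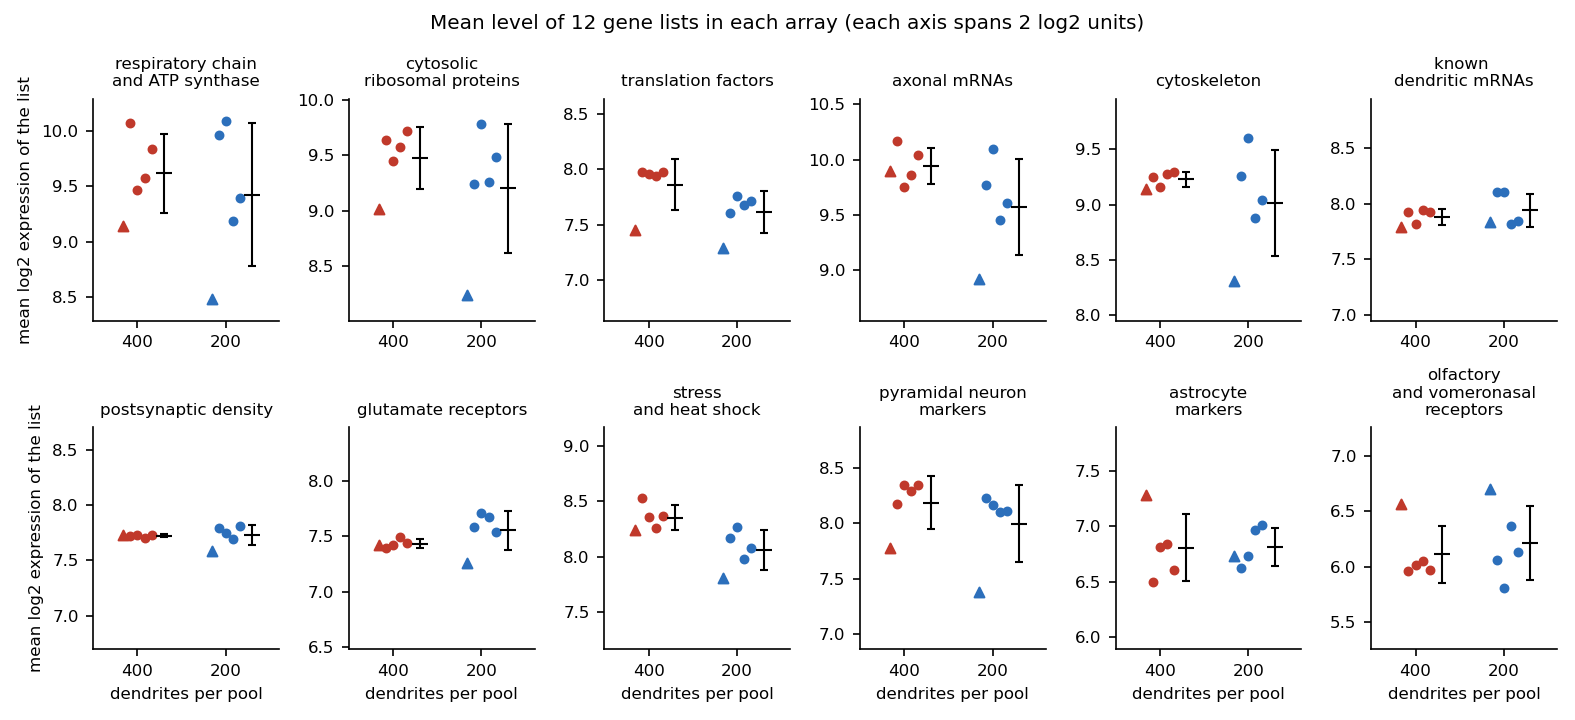
Mean log2 expression (vertical axis) of 12 gene lists in pools of 400 (red, left) and pools of 200 (blue, right). Each point is 1 pool, triangles are replicate 1, bars give the mean and SD of 5 pools, and each axis spans 2 log2 units. Replicate 1 of the pools of 200 was lowest for the respiratory chain (8.49), ribosomal proteins (8.24) and pyramidal neuron markers (7.38), and the postsynaptic density list was nearly level across pools of 400.

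Of the 9 genes that the study examined by in situ hybridisation, 6 were measured by a probe set with 1 symbol. Olfm1, a secreted olfactomedin, was at 9.71, 10.56, 10.19, 10.72 and 11.12 in pools of 400 and at 8.46, 10.45, 10.68, 10.18 and 10.18 in pools of 200. Hnrnpk, an RNA-binding protein, was at 10.53 ± 0.764 in pools of 400 and 10.16 ± 0.661 in pools of 200. Commd3 was at 9.14 ± 0.215 in pools of 400 and 9.06 ± 0.0455 in pools of 200, and Clasrp at 10.81 ± 0.249 in pools of 400 and 10.98 ± 0.267 in pools of 200. Zfp410 averaged 6.65 ± 0.256 in pools of 400 and 6.87 ± 0.484 in pools of 200 (SD, n = 5 each). Adjusted p was 0.788 or more for all 6, and the 2 pool sizes overlapped for each.

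The order of the arrays by correlation did not follow pool size beyond the spread among arrays. The mean pair-wise Pearson's correlation over genes was 0.865 among pools of 400, 0.814 among pools of 200 and 0.831 between them. Correlation within sizes exceeded that between sizes by 0.00909 (exact permutation test over 252 splits, one-sided p = 0.175), and by 0.0203 with 4 pools a side (exact p = 0.0571 over 70 splits). Without replicate 2 of the pools of 400 the difference was -0.00263.

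The pools of 200 split instead among themselves. Replicates 2 and 3 correlated at 0.910 and replicates 4 and 5 at 0.915, whereas across these pairs r was 0.803 to 0.835. Replicates 4 and 5 correlated at 0.842 to 0.909 with replicates 2 to 5 of the pools of 400, and replicates 2 and 3 at 0.825 to 0.861. For Tmsb10, Eif4b and Nr3c2, described above, replicates 4 and 5 were also apart from replicates 2 and 3, but replicate 1 lay with the latter. By correlation, replicate 1 was about as far from replicates 2 and 3 (0.766 and 0.741) as from replicates 4 and 5 (0.760 and 0.755). The pattern of these genes was noticed after their values were seen, and genes with it were not counted. The 3′ minus 5′ signal of the Gapdh control probe sets was 3.15, 3.25, 3.29, 3.25 and 3.46 in pools of 400 and 5.00, 2.39, 2.41, 3.31 and 3.80 in pools of 200, so that replicates 2 and 3 of the pools of 200 had the lowest values of the 10 and replicate 1 the highest. For Actb the signal was 1.65, 5.56, 4.47, 4.33 and 5.42 in pools of 400 and 1.17, 4.75, 4.49, 3.27 and 3.54 in pools of 200. Among pools of 200, replicates 2 and 3 were thus the highest for Actb and replicate 1 the lowest, the reverse of Gapdh. The part of either signal in the split was not tested.

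**Figure D4:**
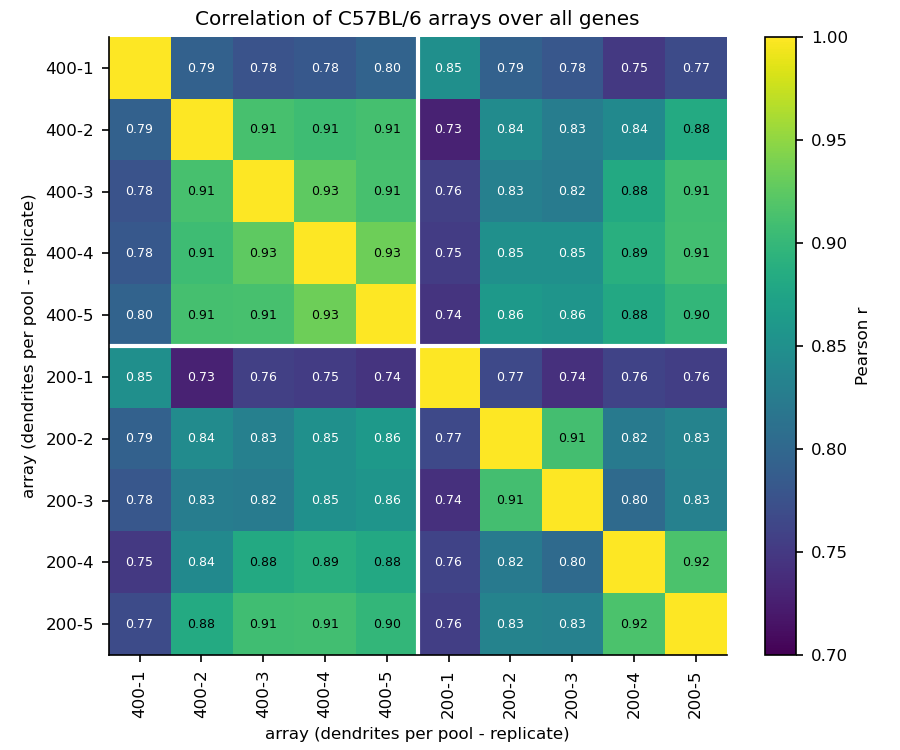
Pair-wise Pearson's correlation over 18193 genes between the 10 arrays, with pools of 400 above and left of the white lines and pools of 200 below and right. Both axes give pool size and replicate number, and colour gives r from 0.7 to 1. Replicate 1 of each size stood apart, replicates 2 to 5 of the pools of 400 formed 1 block (0.907 to 0.934), and replicates 2 and 3 and replicates 4 and 5 of the pools of 200 formed separate pairs.

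A larger pool averages over more dendrites, and the spread between pools of each size was compared for that reason. The median SD of a gene was 0.468 in pools of 400 and 0.544 in pools of 200, a ratio of 0.859 (log2 ratio -0.22, exact two-sided permutation p = 0.405). With 4 pools a side it was 0.356 in pools of 400 and 0.458 in pools of 200 (exact p = 0.0571, where the smallest p possible was 0.0286). The comparison turned on replicate 1 of each size: without that of the pools of 400 the log2 ratio was -0.61 (exact p = 0.0159), and without that of the pools of 200 it was 0.03 (exact p = 0.960). A smaller spread in pools of 400 was thus not resolved from the spread among arrays. The mean correlation within pools of 400 exceeded that within pools of 200 by 0.0510 (exact two-sided p = 0.373), and without replicate 1 of the pools of 400 by 0.103 (exact p = 0.0238). After Benjamini-Hochberg adjustment over the 8 tests on whole arrays, p was 0.626 or more for each.

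Over all genes, 60% had a lower SD in pools of 400 than in pools of 200, and 64.2% with 4 pools a side. In the decile of genes with the highest level the median SD was 0.430 in pools of 400 and 0.667 in pools of 200, and 0.321 in pools of 400 against 0.540 in pools of 200 with 4 a side. The lowest decile had 0.539 in pools of 400 and 0.581 in pools of 200. Of 42 cytosolic ribosomal protein genes, 36 had a lower SD in pools of 400, with a median of 0.458 in pools of 400 and 0.905 in pools of 200. For 30 of the 42 this also held with 4 pools a side, at 0.313 in pools of 400 and 0.498 in pools of 200. Respiratory chain genes had a lower SD in pools of 400 for 57 of 76 (median 0.624 in pools of 400 and 0.824 in pools of 200), stress genes for 29 of 34 and proteasome subunits for 32 of 39. With 4 pools a side the counts of these lists were 52 of 76, 27 of 34 and 28 of 39. For olfactory and vomeronasal receptors the count with all 5 pools was 37 of 69, and for astrocyte markers 9 of 18. For microglial markers it was 8 of 17 and for oligodendrocyte markers 6 of 17. With 4 pools a side these were 43 of 69, 13 of 18, 11 of 17 and 8 of 17. Differences between lists were not tested.

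**Figure D5:**
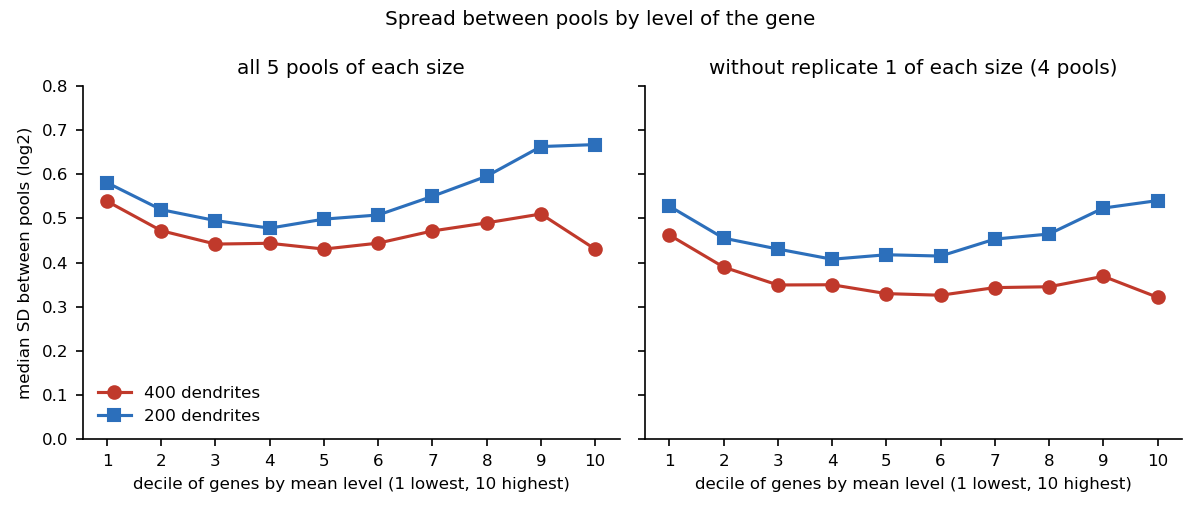
Median SD between pools on the log2 scale (vertical axis) in each decile of genes by mean level (horizontal axis), for pools of 400 (red circles) and pools of 200 (blue squares), with all 5 pools (left) and without replicate 1 of each size (right). The gap was widest in the highest decile, 0.430 in pools of 400 against 0.667 in pools of 200.

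The number of genes above the boundary set by the receptor genes was 1368, 2965, 1870, 2051 and 1887 in pools of 400 and 1411, 3317, 6607, 1384 and 1904 in pools of 200. The difference of -896 (exact two-sided permutation p = 0.548) came with 1 pool of 200, replicate 3, and was 24.2 without it. That array also had the lowest boundary, 7.24 against 8.27 to 9.53 in the other pools of 200 and 8.40 to 9.63 in pools of 400. The Gapdh 3′ minus 5′ signal averaged 3.28 ± 0.114 in pools of 400 and 3.38 ± 1.09 in pools of 200 (SD, n = 5 each, exact permutation p = 0.929), and that of Actb 4.29 ± 1.57 in pools of 400 and 3.45 ± 1.42 in pools of 200 (exact permutation p = 0.397). For Actb, replicate 1 of each size was the lowest, at 1.65 in pools of 400 and 1.17 in pools of 200. Array medians were 6.76 ± 0.0544 in pools of 400 and 6.82 ± 0.0666 in pools of 200 (exact permutation p = 0.183).

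The highly expressed genes were largely shared. Of the 910 genes in the top 5% by median rank in each pool size, 781 were shared (85.8% of each list), and splits of the 10 arrays that ignored pool size gave a median of 86.3% (exact permutation over 252 splits, one-sided p = 0.476 for a lower overlap). Ranks 1 and 2 in both sizes were held by Sult2b1 and Smc1b. Sult2b1 was at 15.44 ± 0.147 in pools of 400 and 15.38 ± 0.160 in pools of 200. Smc1b was at 15.40 ± 0.122 in pools of 400 and 15.50 ± 0.0790 in pools of 200. Acot3, Oxt and Grid2ip also ranked at or above Tuba1a in both sizes. Tuba1a, the alpha-tubulin of growing neurons, was at 14.85 ± 0.412 in pools of 400 and 14.67 ± 0.486 in pools of 200. Stmn4, a stathmin of neurons, was at 14.46 ± 0.222 in pools of 400 and 14.00 ± 1.45 in pools of 200. Among genes in the top list of 1 size only, the complement regulator Cfi was at 10.27 ± 1.26 in pools of 400 and 8.16 ± 2.33 in pools of 200, and the gastric lipase gene Lipf at 7.69 ± 3.09 in pools of 400 and 10.59 ± 1.62 in pools of 200. Adjusted p from limma was 0.588 for Cfi and 0.581 for Lipf.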

How the data were processed

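Each array held 1 pool of dendrites. The authors deposited log2 expression per probe set, computed with RMA (the submitters' processing notes give version 2.0) from the upper decile of a set's probes; the scaling that the methods also name is not in the deposited values. Of 45101 probe sets, 34945 had 1 gene symbol, of which 34741 matched RefSeq GRCm38.p6 by gene identifier; 932 with several symbols, 9160 with none and 64 controls were left out of the gene table. Each gene was given the median over its probe sets (18193 genes, no filter on dim genes). The highest correlation of any 2 arrays was 0.951, so none was a copy. For arrays, their number limits the precision.

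Pools of 400 and pools of 200 (5 each) were compared with limma 3.58.1 (lmFit and eBayes, two-sided, R 4.3.3) and Benjamini-Hochberg adjustment over all genes at 0.05, with no covariate, and single values over arrays with exact permutation tests. At the study's threshold of 0.001, 0 genes passed too. The limma fit was tested on simulated data, drawn as independent normal values for each gene. Those data held no array differences shared by many genes, such as replicate 1 showed here, so that test does not cover them. Named genes follow a rule. As none passed, the 12 of lowest p on either side were named, and from every list at most 3 members of lowest p. Those the study examined in situ were named too, as were Map2, Camk2a, Actb, Gfap and Nrgn. Sult2b1, Smc1b, Acot3, Oxt, Grid2ip, Tuba1a, Stmn4, Cfi, Lipf and Calb2 were chosen after their values were seen. The comparison and the lists were chosen with earlier results of these data known. Alternatives changed the normalisation, the probe sets of a gene, the filter, the arrays, the number format as a block, the replicate block and the test.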

Additional observations from a re-analysis of the deposited data

Results flagged for a closer look

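Of 290 sets of 5 pools (each named gene, list mean and array measure in each pool size), 21 held 1 pool that lay far from the other 4, and chance alone gives about 1 in 20 such sets. Replicate 1 of the pools of 400 was the pool in 7 of them. It had the lowest mean correlation with its own group (0.787, the next 0.881), the lowest mean of translation factors (7.45, the next 7.94) and the highest mean of olfactory and vomeronasal receptors (6.57, the next 6.05). In that pool Syn2 was at 10.43, Gfap at 7.36, Cplx1 at 8.14 and Snrpn at 5.41. Replicate 1 of the pools of 200 was the pool in another 7, with a mean correlation with its own group of 0.756 (the next 0.822) and a mean of pyramidal neuron markers of 7.38 (the next 8.10). It was lowest for Rab11a (6.46), Snhg8 (6.79), Olfm1 (8.46) and Hnrnpk (9.01), and highest for Kif26b (7.43). In the other pools of 400, Ndufa5 was at 11.31 in replicate 2, Nlgn1 at 8.30 in replicate 3, Trib3 at 6.96 in replicate 4 and Stmn1 at 12.38 in replicate 5. In the other pools of 200, Zfp784 was at 8.33 in replicate 3, Selenoo at 8.90 in replicate 4 and Coa4 at 10.35 in replicate 5.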

How the results depend on the processing

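No gene passed under any of the 23 alternatives that tested genes, in which between 798 and 2372 genes had an unadjusted p under 0.05 (1509 with all 10 arrays as deposited); tested singly, an alternative added after seeing the data, 1 probe set passed without a block, 3 with the number format block and 2 with the replicate block. With the replicate block 0 genes passed and 2134 had an unadjusted p under 0.05, and deviations of same-numbered pools correlated at 0.522, 0.139, -0.125, 0.202 and 0.082, so the numbers were not taken as pairs. For the 24 genes with the smallest p, adjusted p ran from 0.0618 to 0.938 over the alternatives, and Ubxn7 alone changed sign. With the brightest probe set standing for the gene, differences were -0.10 for Ubxn7, -0.46 for Kif3a, 0.14 for Kif11, 0.0814 for Cplx1, 0.44 for Elavl1, 0.42 for Mbp and 0.0269 for Laptm5, and Laptm5 was also at 0.0269 without probe sets that may match several transcripts. When 1 array was left out, the log2 ratio of spreads ran from -0.61 to 0.0285, correlation within minus between sizes from -0.00263 to 0.0211, correlation within pools of 400 minus within pools of 200 from 0.0121 to 0.103, the Gapdh 3′ minus 5′ difference from -0.35 to 0.30 and genes above background from -1282 to 24.2. The Gapdh difference was 0.34 with 4 pools a side, and genes above background differed by 121 with the boundary at the 99th percentile. With the brightest probe set, the differences of Naa30, Rbsn and Twistnb were 0.46, 0.45 and 0.21. The cause of these shifts was not tested. Quantile normalisation, median centring and the methods' scaling moved the median of all genes to as little as -0.01, and turned the sign of the median of the postsynaptic density and in situ lists, and of no other list.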

Other observations

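Balb/c pools of 400 (2 arrays) and of 200 (1 array) share no array with the comparison above. Of the 12 genes with the smallest p that were higher in C57BL/6 pools of 400, 1 (Nhlrc1) was also higher in Balb/c pools of 400, whereas 44.2% of all genes with a positive difference in C57BL/6 had one in Balb/c. Of the 12 that were lower, 0 were lower in Balb/c pools of 400, against 30% of all genes with a negative difference. The Balb/c difference was -0.94 for Naa30, -2.79 for Ube2e2, 1.28 for Tasor and 3.37 for Coa4. With 1 Balb/c pool of 200 these differences have no replicate check.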
